A study of Mus musculus with 18 samples.

Results

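Wild-type mouse epiblast-like cells (EpiLCs) were compared with wild-type aggregates kept for 2 days in suspension without cytokines, over all genes. The libraries were chosen by the labels of the deposited columns, which gave 4 of the 18 libraries of the series, 2 of EpiLCs and 2 of day 2 aggregates. The study examined how cells that lack the TET DNA demethylases pass from pluripotency towards the germline, and its cytokine-free aggregates stand for cells that differentiate without germline signals. Counts of 16582 of 25239 genes passed the filter on low counts and were tested.

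Both groups come from E14Tg2a, an established mouse embryonic stem cell line that carries unmodified Tet genes. Cells held in 2i/LIF were turned into EpiLCs for 44 hours in N2B27 medium with Activin A, Fgf and knock-out serum replacement (KOSR). For the day 2 group, EpiLCs were then grown in suspension in GK15, a GMEM medium with a higher share of KOSR, and received none of BMP4, BMP8a, SCF, LIF and EGF. Time, medium, the loss of Activin A and Fgf, and aggregation changed together and cannot be told apart. The study collected these samples as full aggregates, without a sort. In such bulk libraries, fewer cells of a type and less RNA per cell cannot be told apart. TKO cells, the comparison used at the end, are the same line with the open reading frames of Tet1, Tet2 and Tet3 deleted in successive rounds of targeting and cloning. The labels do not name the TKO clone. The study calls its replicates biological but the labels do not say whether they came from separate cultures. The p-values therefore measure spread between replicate libraries, estimated over all 18 libraries of the model and not over the 4 compared.

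EpiLCs are a culture model of the epiblast just before gastrulation, a formative pluripotent state held by Nodal or Activin and FGF signals. When these signals fade, epiblast cells readily become neural plate, the source of brain and spinal cord. Retinoic acid, Wnt and FGF signals then give neural tissue its head-to-tail position, which the Hox genes record. BMP signals instead direct epiblast cells to the germline, the surface ectoderm or the mesoderm.

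The totals were 16674967 and 41257861 counts for the EpiLC libraries and 15223241 and 22405817 for the day 2 libraries. Rn45s, the ribosomal RNA precursor, took 40.7 to 47.6% of the EpiLC counts and 21.5 to 31.3% of the day 2 counts. Levels below are normalised counts, which are counts divided by the size factors of DESeq2, given for replicate 1 and then replicate 2. Folds are log2 fold changes of day 2 over EpiLCs ± SE, and adjusted p comes from the quasi-likelihood test of edgeR and was adjusted by the Benjamini-Hochberg method across the 16582 genes (n = 2 libraries in each group).

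By day 2 the transcriptome had moved widely in both directions. At an adjusted p below 0.05, 3090 genes were higher (18.6% of those tested) and 2606 were lower (15.7%). With a log2 fold change beyond 2 as well, 1127 genes were higher (6.8%) and 774 lower (4.67%), so 59.3% of these 1901 genes were higher. Scaling by library size alone raised the median of all genes from 0.02 to 0.59 on the log2 scale and the share of higher calls to 78.8%. List medians and counts given below under library size alone contain this shift of all genes. Those library sizes include Rn45s, whose share of the counts was lower at day 2. The libraries of the groups did not overlap for 1897 of the 1901 genes. The limits on adjusted p and fold make such overlap unlikely, so this count is no further support for the calls. Genes of 27 lists are described next, and each count is to be read against the shares over all genes above.

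**Figure D1:**
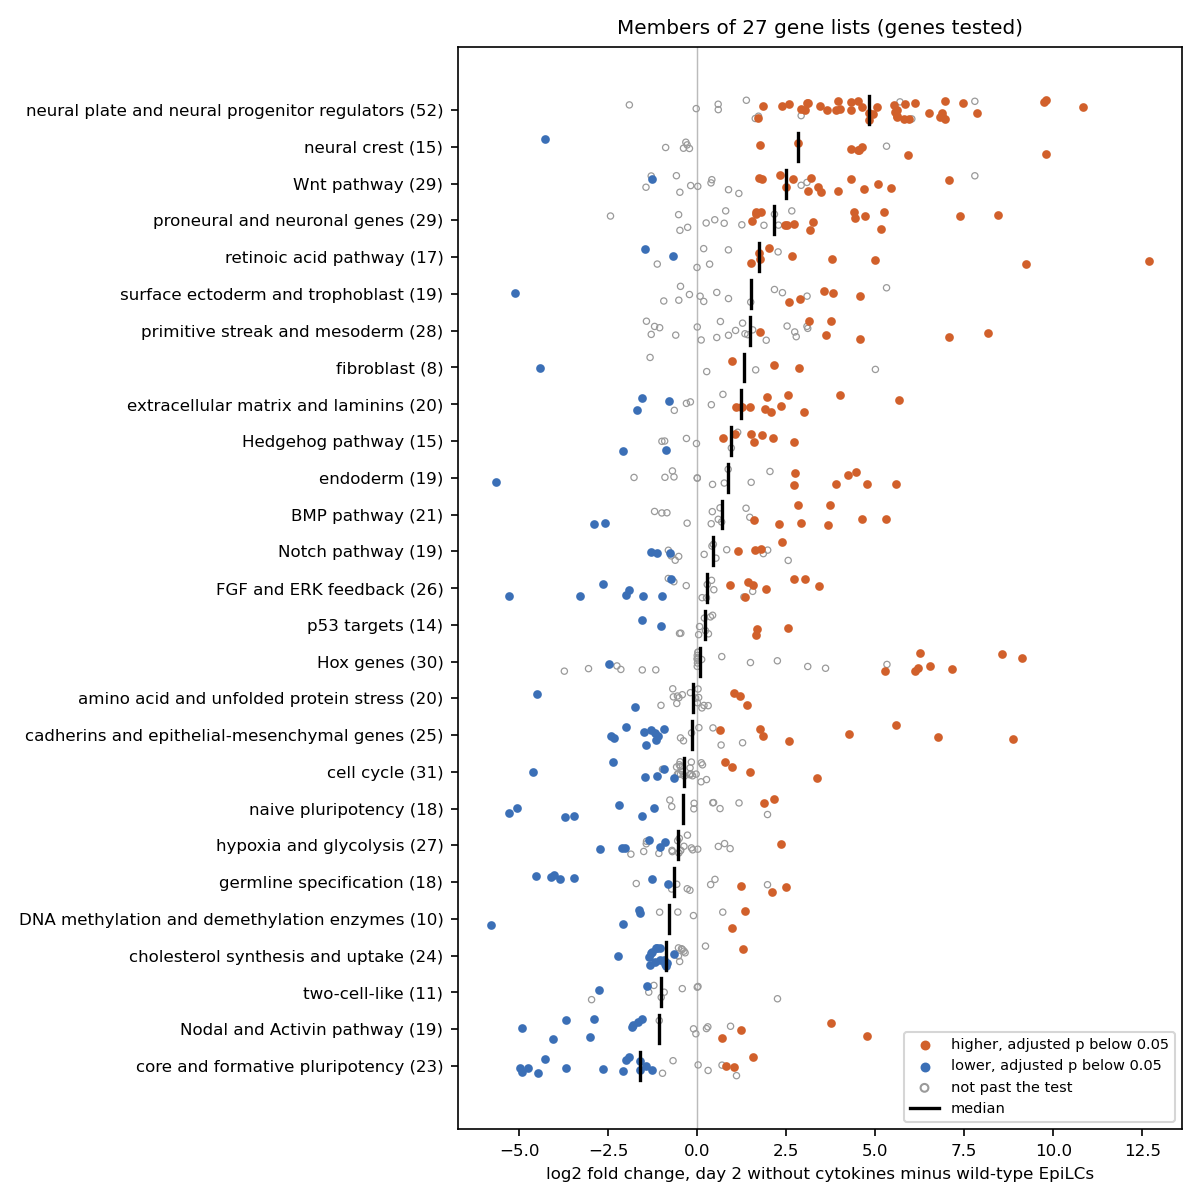
Log2 fold changes (day 2 without cytokines minus wild-type EpiLCs) of the list members that passed the filter, with 1 row for each of 27 gene lists, the number tested in brackets and a bar at the median. The neural plate list has the highest median, 4.83, and the core and formative pluripotency list the lowest, −1.60.

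Most pluripotency genes of the EpiLC state fell. Of 23 core and formative genes tested, 14 were lower, 3 higher and 6 not past the test, with a median log2 fold change of −1.60. The number higher was 1 without EpiLC replicate 1 or without day 2 replicate 1, and 5 under library size alone. Fgf5, the growth factor that marks the primed epiblast, had 1839 and 2354 normalised counts in EpiLCs and 522 and 548 at day 2 (−1.92 ± 0.47, adjusted p = 0.00536). Both day 2 libraries lay below both EpiLC libraries, as they did for every other gene described here as lower. Much larger falls were measured for Tdgf1, the Nodal co-receptor Cripto, with 3785 and 3296 counts in EpiLCs and 164 and 66.0 at day 2 (−4.91 ± 0.38, adjusted p = 4.68e-07). Tcf15, a transcription factor of cells leaving naive pluripotency, fell from 771 and 359 to 21.4 and 13.2 (−4.97 ± 0.51). Dppa2 and Dppa4, partner chromatin proteins of pluripotent cells, fell as well, with log2 fold changes of −4.74 and −4.49.

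The central factors did not move as one. Pou5f1, which encodes Oct4, fell from 18550 and 17082 normalised counts to 3786 and 8819 (−1.44 ± 0.42, adjusted p = 0.0162). This call was lost without either EpiLC replicate (adjusted p = 0.0711 and 0.053), without day 2 replicate 1 (0.177) and under library size alone (0.0614). Sox2, which pluripotent and neural cells share, rose from 1311 and 604 to 3258 and 2196 (1.57 ± 0.30, adjusted p = 0.00111). Nanog, best known from naive cells and from the germline, rose from 422 and 359 to 1577 and 1782 (2.16 ± 0.28, adjusted p = 4.45e-05). Otx2, a factor of the formative state and of the anterior neural plate, had 1158 and 1718 counts in EpiLCs and 757 and 664 at day 2, which was not past the test over all 18 libraries (adjusted p = 0.39) but was past it in a model of the 4 libraries alone (adjusted p = 0.00311). The spread in the model of 18 libraries takes in the day 6 libraries without cytokines, where Otx2 was at 10.4 and 594. Per kilobase of exon, Pou5f1 remained above Sox2 at day 2, at 2780 and 6475 normalised counts against 1584 and 1068.

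Naive pluripotency genes were split. Of 18 tested, 7 were lower, 2 were higher and 9 were not past the test, with a median of −0.41 that became 0.17 under library size alone and 0.21 without EpiLC replicate 1. Measured from the median of all genes, the list lay at −0.43, at −0.42 under library size alone and at 0.20 without EpiLC replicate 1. Fgf4, the FGF ligand of pluripotent cells, fell from 2684 and 2610 normalised counts to 77.0 and 54.4 (−5.29 ± 0.39, adjusted p = 3.37e-07). Dppa5a, an RNA-binding protein of embryonic stem cells, fell from 15903 and 11617 to 355 and 442 (−5.05 ± 0.43). Nr0b1, an orphan nuclear receptor, fell by 3.72 and Zfp42, also called Rex1, fell by 2.20 on the log2 scale. The 2 that were higher were Nanog and Gbx2, and Gbx2, named here after its values were seen, is also a regulator of the hindbrain (360 and 198 against 906 and 1033).

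**Figure D2:**
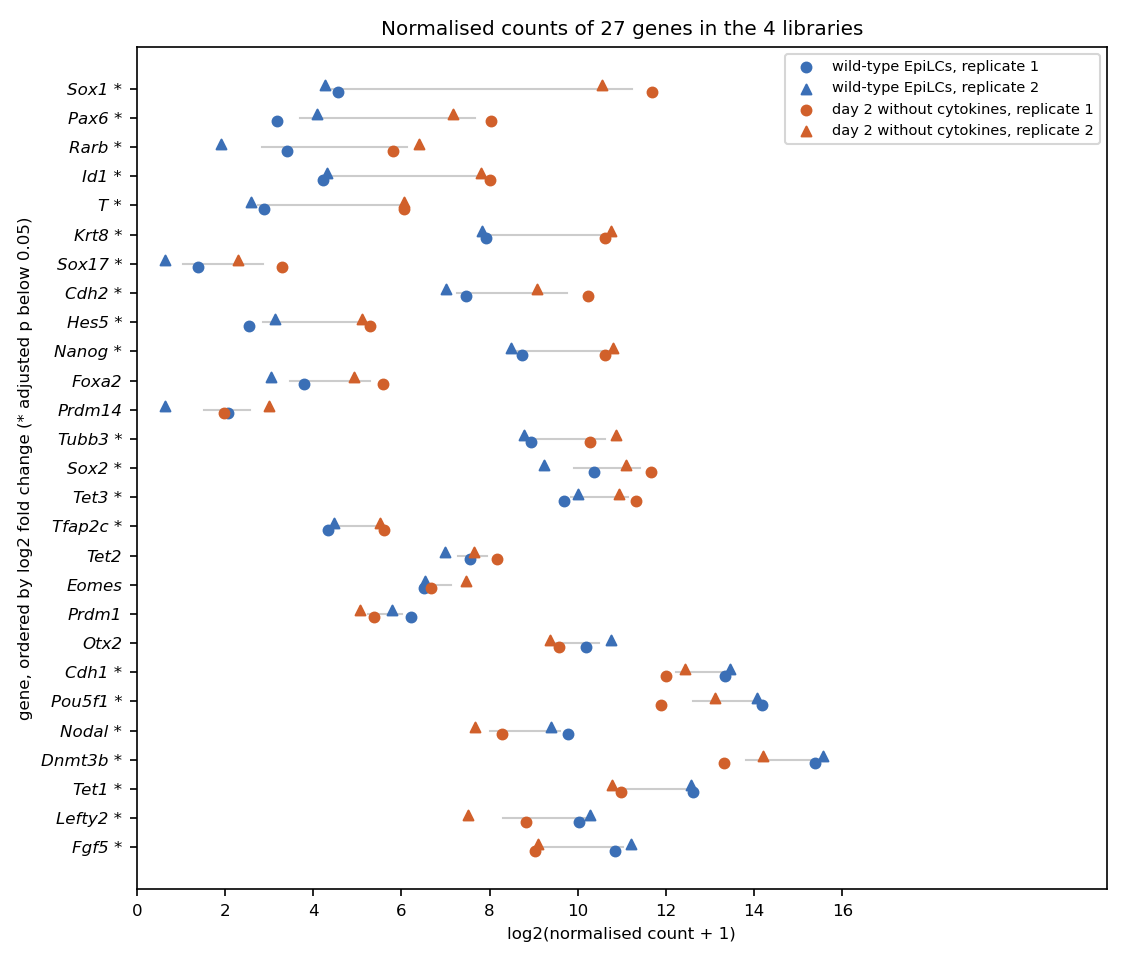
Normalised counts of 27 genes on a log2 scale after adding 1, for each of the 4 libraries, ordered by log2 fold change, with a grey line between the group means. Sox1, at the top, went from 22.5 and 18.3 in EpiLCs to 3293 and 1498 at day 2, and Fgf5, at the bottom, from 1839 and 2354 to 522 and 548.

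The neural plate programme was the group that rose most. Of 54 neural plate and neural progenitor regulators, 52 passed the filter, 41 of them were higher and 0 lower, and 39 were higher by a log2 fold change beyond 2. The filter could be passed through any of the 9 groups, so these are not all the list's members. Members near 0 counts in EpiLCs could not be called lower, so the 0 lower is no result for them. The median was 4.83, or 3.93 with the 19 genes at or below 3 counts in a group set to their bound. Sox1, the earliest marker of neural commitment, had 22.5 and 18.3 normalised counts in EpiLCs and 3293 and 1498 at day 2 (6.95 ± 0.57, adjusted p = 7.82e-07). The Sox1 gene lies at chr8:12395519-12399555 of GRCm38. Pax6, a homeobox regulator of neural progenitors, rose from 8.03 and 16.1 to 262 and 144 (3.96 ± 0.51, adjusted p = 4.16e-05).

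Genes of several levels of the neural axis were among them. Olig3, a bHLH factor of the dorsal hindbrain and spinal cord, had at most 2 counts in each EpiLC library and 1017 and 886 normalised counts at day 2, which is at least 293-fold higher. Meis2, a partner of Hox and Pax proteins, rose from 11.2 and 6.67 to 1958 and 1748 (7.87 ± 0.43, adjusted p = 5.2e-08). Pax3, a factor of the dorsal neural tube and neural crest, was at 0 in both EpiLC libraries and at 167 and 38.1 at day 2, at least 31.6-fold higher. Meis1 reached 374 and 106 (at least 74.1-fold higher). The midbrain and hindbrain factor En1 was named after its values were seen, because the day 2 libraries disagreed on it, with 193 and 5.44 normalised counts.

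The 2 day 2 libraries held this programme at different levels. For 46 of the 52 neural plate genes, replicate 1 lay above replicate 2, against 52.6% of all genes tested, and the median log2 ratio was 1.13 against 0.03. Cholesterol genes ran the other way, with replicate 1 above replicate 2 for 1 of 24. Without day 2 replicate 1 34 genes of the neural plate list were called higher, with a median of 3.48, and without replicate 2 there were 41, with a median of 5.13. Without EpiLC replicate 2 there were 29.

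**Figure D3:**
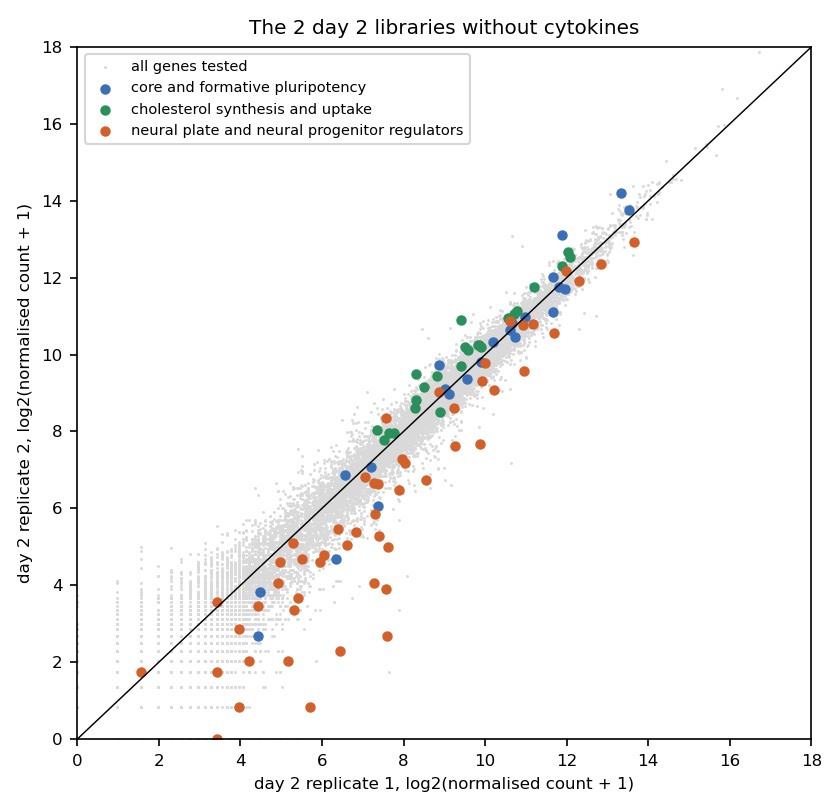
Normalised counts of the 2 day 2 libraries without cytokines against each other, on a log2 scale after adding 1, for all genes tested (grey) and for 3 lists, with the line of equal counts. Of the 52 neural plate genes (orange), 46 lie below the line, and 23 of the 24 cholesterol genes (green) lie above it.

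Neuronal genes rose less and from mixed starting levels. Of 29 proneural and neuronal genes tested, 16 were higher and 0 lower, with a median of 2.17, or 1.80 with 6 genes set to their bound. Here too, members near 0 counts in EpiLCs could not be called lower. Tubb3, the neuronal beta tubulin, was already at 490 and 441 normalised counts in EpiLCs and reached 1238 and 1879 at day 2 (1.80 ± 0.34, adjusted p = 0.000833). Onecut2, a transcription factor of early neurons, rose from 12.8 and 7.78 to 276 and 124 (4.43 ± 0.95). Stmn3, a regulator of microtubules, rose by 3.25, Gap43, a growth cone protein, by 2.51, and Map2, a protein of dendrites, by 2.48 on the log2 scale. Hes5, a Notch target of neural progenitors, rose from 4.82 and 7.78 to 38.02 and 33.4 (2.39 ± 0.43, adjusted p = 0.000699).

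Levels in the day 6 libraries without cytokines, given side by side and not tested here, placed these genes in time. Sox1 was at 1204 and 1516 normalised counts at day 6, against 3293 and 1498 at day 2. Tubb3 had reached 17308 and 18374 by then. Nanog, at 1577 and 1782 on day 2, was at 16.8 and 9.26 at day 6.

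Retinoic acid is made from vitamin A, is degraded by the CYP26 enzymes and acts through RAR receptors on target genes, of which Rarb and Cyp26a1 are classical examples. Of 17 genes of this pathway tested, 9 were higher and 2 lower (1 lower without EpiLC replicate 1 or day 2 replicate 1, and under library size alone), with a median of 1.72. The promoter sequences of both are printed because these genes hold, just before a transcript start, a pair of direct repeats spaced by 5 bases, the arrangement that retinoic acid receptors are known to bind. They are from RefSeq promoter windows of GRCm38.p6, each cut at 1 start of its gene, and capitals mark the match to GTTCA, any 5 bases and then AGTTCA, searched on both strands. Rarb is given on the minus strand at chr14:16575477-16575568, with the match 52 bases before the start, and Cyp26a1 on the plus strand at chr19:37697736-37697807, with the match on its other strand and 32 bases before the start. These starts, at positions 16575476 and 37697808, lie 506855 and 70 bases inside the whole spans of Rarb and Cyp26a1, so other starts of these genes were not searched.
Rarb: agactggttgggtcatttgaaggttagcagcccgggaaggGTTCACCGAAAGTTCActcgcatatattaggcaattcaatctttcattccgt
Cyp26a1: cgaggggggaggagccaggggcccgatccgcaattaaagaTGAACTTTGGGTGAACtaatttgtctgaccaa

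This pattern is rare. Of 27025 genes with a promoter window of 300 bases, 11 (0.0407%) hold it, against 2 of the 14 retinoic acid pathway genes with a window (14.3%). These 2 are Rarb and Cyp26a1, classical targets placed in the list, so the share follows from that choice and tests nothing. Of the 11, 4 were tested here, and besides Rarb and Cyp26a1 they were Blvrb, which encodes biliverdin reductase B and was lower (−2.18 ± 0.29, adjusted p = 5.48e-05), and Lcorl, which was not past the test (0.34 ± 0.40, adjusted p = 0.536). Of the 22 Hox genes with a window, 0 hold the pattern. A match is a string of letters and not a measured binding site.

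Rarb, a retinoic acid receptor, rose from 9.64 and 2.78 normalised counts to 55.6 and 83.1 (3.77 ± 0.65, adjusted p = 0.000453). Cyp26a1, which degrades retinoic acid, had at most 2 counts in each EpiLC library and 673 and 493 normalised counts at day 2, at least 180-fold higher. Its neighbour Cyp26c1 on chromosome 19 (chr19:37685112-37693320, next to Cyp26a1 at chr19:37697738-37701536) encodes another such enzyme and went from 0 in both libraries to 1171 and 349, at least 234-fold higher. Both were back at 1.81 to 6.95 normalised counts in the 4 values of day 6 without cytokines. Crabp1 and Crabp2, which carry retinoic acid inside cells, rose by 5.004 ± 0.44 and 2.67 ± 0.33 on the log2 scale. Crabp1 had 132 and 148 counts in EpiLCs and 6774 and 2049 at day 2. The 2 members that were lower, named after their values were seen, were the receptors Rara and Rarg (−0.69 and −1.47).

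The Hox genes that rose had low paralogue numbers, the numbers of the hindbrain end of each cluster. Of 15 Hox genes with paralogue numbers 1 to 5, 13 passed the filter and 8 were higher and 0 lower. Their EpiLC means were at or below 3.80 normalised counts (Hoxb3), too low for a fall to be called. Of 24 with numbers 6 to 13, 17 passed, 0 were higher and 1, Hoxd13, was lower, a call not made without EpiLC replicate 1, without either day 2 replicate or under library size alone, and the highest day 2 mean among them was 4.68 normalised counts (Hoxb8). The 30 Hox genes tested together had a median of 0.07. Hoxb1, a marker of a hindbrain segment that is also an early retinoic acid target, had at most 2 counts in EpiLCs and 656 and 424 normalised counts at day 2, at least 166-fold higher. Hoxb2 reached 484 and 208 (at least 107-fold higher) and Hoxa2 228 and 149 (at least 58.2-fold higher). The 8 that rose were in the Hoxa and Hoxb clusters, and each Hoxc or Hoxd gene tested with a number from 1 to 5 had a day 2 mean below that of Hoxb4. Hoxb4, the lowest of the 8 at day 2, had 3.90 and 4.66 normalised counts there (adjusted p = 0.0329). Hoxb8, which was not called, had 7.80 and 1.55 (adjusted p = 0.063), so the border between the sets rests on values near 0.

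**Figure D4:**
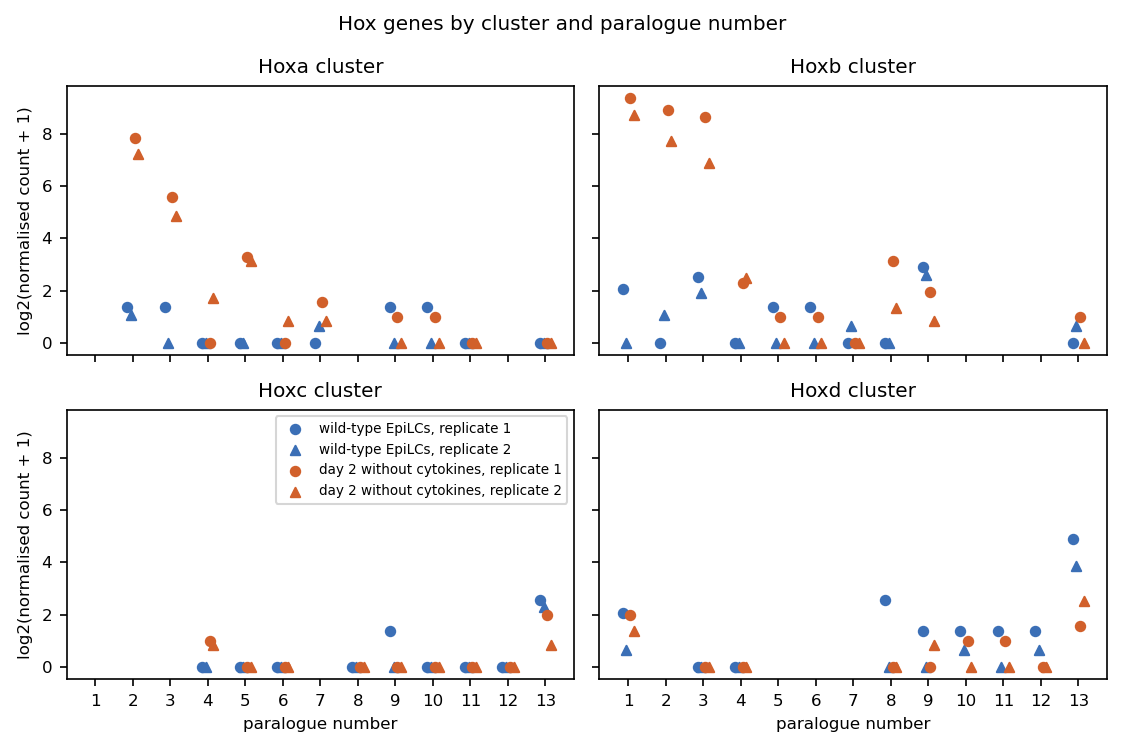
Normalised counts of 38 Hox genes on a log2 scale after adding 1, against paralogue number, with 1 panel for each cluster. Day 2 levels (orange) stand above EpiLC levels (blue) at the low numbers of Hoxa and Hoxb, led by Hoxb1 at 656 and 424, and fall towards 0 at the higher numbers.

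Many Wnt pathway genes were higher. Of 29 tested, 15 were higher and 1 lower, with a median of 2.49, or 1.82 with 6 genes set to their bound, and 7 were higher without EpiLC replicate 2 and 9 without EpiLC replicate 1. Wnt8a, a ligand of the posterior epiblast and early hindbrain region, rose from 22.5 and 7.78 normalised counts to 1296 and 2066 (7.07 ± 0.86, adjusted p = 2.5e-05), and was at 0.907 and 9.26 at day 6. Axin2, the feedback inhibitor that reports canonical Wnt signalling, rose from 138 and 123 to 1241 and 951 (3.12 ± 0.56, adjusted p = 0.000612). Sp8, a zinc-finger target of Wnt signals, rose by 4.68, and Sfrp1, a secreted Wnt antagonist, by 3.40 on the log2 scale. Frzb, another secreted antagonist and one of the 12 largest rises, went from at most 2 counts to 560 and 304, at least 133-fold higher.

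Of 19 Notch pathway genes, 4 were higher (21.1%) and 3 lower (15.8%), shares close to those of all genes. Under library size alone 11 were higher and 1 lower, by DESeq2 6 were lower, and without EpiLC replicate 1 there was 1 lower. Lfng, which modifies Notch receptors, rose by 1.80 and Nrarp, a Notch target, by 1.63, while Hes6, which opposes Hes1, fell by 1.31 on the log2 scale. Of 15 Hedgehog pathway genes, 7 were higher and 2 lower, and 1 was lower when any of the 4 libraries was left out and under library size alone. Boc and Gas1, co-receptors, rose by 2.73 and 2.13 (for Gas1 adjusted p = 0.00495, and 0.0511 without day 2 replicate 1), and Gli3, the transcription factor that represses targets in the absence of ligand, by 1.81. The ligand Shh was listed at 6.43 and 1.11 in EpiLCs and 2.92 and 0 at day 2.

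Many genes of Nodal signalling fell. Of 19 tested, 9 were lower and 4 higher, with a median of −1.07 that was −0.81 with 3 genes set to their bound. The number higher was 2 without either EpiLC replicate or without day 2 replicate 1. Nodal, the ligand, fell from 871 and 673 normalised counts to 308 and 203 (−1.55 ± 0.31, adjusted p = 0.00138). Lefty1, the feedback antagonist that Nodal itself induces, fell from 7281 and 3953 to 615 and 235 (−3.68 ± 0.43, adjusted p = 1.96e-05). Lefty2 fell by 1.82 (adjusted p = 0.00549, and 0.0673 without day 2 replicate 2), and Gdf3, a related ligand, fell by 3.01 on the log2 scale. Fst, which binds and blocks Activin, moved against them from 119 and 156 to 1867 and 1770 (3.76 ± 0.63, adjusted p = 0.000372).

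FGF genes moved in both directions. Of 26 tested, 8 were higher and 8 lower (5 lower under library size alone). Besides Fgf4 and Fgf5, which fell, the receptor Fgfr2 rose from 127 and 101 to 872 and 885 (3.02 ± 0.29, adjusted p = 3.02e-06) and Fgfr3 from 6.43 and 10.01 to 93.6 and 94.8 (3.43 ± 0.41). Phlda1, a gene that follows FGF signalling, rose by 2.71. Fgf10, a ligand best known from limb and lung, was at 0 in EpiLCs and at 173.5 and 62.9 at day 2, at least 36.5-fold higher.

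BMP targets of the Id family rose. Of 21 BMP pathway genes tested, 8 were higher and 2 lower, with a median of 0.68, and 4 were higher without EpiLC replicate 2, 4 without day 2 replicate 1, 5 without EpiLC replicate 1 and 14 under library size alone. The number lower was 1 without EpiLC replicate 1, without day 2 replicate 2 or under library size alone. Id1, an inhibitor of bHLH factors that BMP induces, rose from 17.7 and 18.9 to 255 and 221 (3.72 ± 0.78, adjusted p = 0.00194), and Id2 from 64.3 and 47.8 to 895 and 470 (3.68 ± 0.63). Bmp7, a ligand, rose by 2.93. Smad7, an inhibitor that both Nodal and BMP signals induce, fell by 2.91 on the log2 scale.

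Markers of other lineages were measured because aggregates can hold several cell types. Of 28 primitive streak and mesoderm genes tested, 7 were higher and 0 lower (4 higher without EpiLC replicate 2, 4 without day 2 replicate 1 and 12 under library size alone). At or below 3 counts in a group were 5 of the 28, and a member near 0 in EpiLCs could not be called lower. T, also called Brachyury and the defining gene of the streak, rose from 6.43 and 5.003 normalised counts to 65.3 and 66.0 (3.60 ± 1.09, adjusted p = 0.0182). The call on T was lost without either EpiLC replicate (adjusted p = 0.0774 and 0.14) and without day 2 replicate 1 (0.0506). Eomes had 90.0 and 92.3 counts in EpiLCs and 100.4 and 175 at day 2 (adjusted p = 0.146). Kdr, a receptor of endothelial and mesodermal progenitors, reached 236 and 72.2, at least 47.5-fold higher, while Mesp1 and Msgn1 were at 0 in both day 2 libraries.

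Of 19 endoderm genes tested, 7 were higher (36.8%) and 1 lower, and 2 were higher and 2 lower without EpiLC replicate 2. By DESeq2, with RLE factors or without day 2 replicate 1, 2 were lower. Sox17, its defining factor, had 1.61 and 0.556 normalised counts in EpiLCs and 8.77 and 3.89 at day 2 (adjusted p = 0.0235), at least 1.95-fold higher. The Sox17 call was lost by DESeq2 (adjusted p = 0.0556), without EpiLC replicate 2 (0.265) and without day 2 replicate 1 (0.172). Foxa2, a factor of endoderm and floor plate, had 12.8 and 7.23 against 46.8 and 29.5 (adjusted p = 0.0892, and 0.0089 in a model of the 4 libraries alone). Trh, the thyrotropin-releasing hormone gene, rose from 260 and 148 to 4413 and 4082 (4.46 ± 0.78, adjusted p = 0.000491), and Cxcr4, a chemokine receptor, rose by 3.90. The lower gene was Rhox5, an X-linked homeobox gene (904 and 1160 against 15.6 and 23.3). Of 19 surface ectoderm and trophoblast genes, 5 were higher and 1 lower (2 higher without EpiLC replicate 2, and 3 without EpiLC replicate 1 or day 2 replicate 1). The simple keratin Krt8 rose from 241 and 225 to 1558 and 1730 (2.87 ± 0.58, adjusted p = 0.00155) and Krt19 from 41.8 and 35.0 to 507 and 529 (3.82 ± 0.33), while Cdx2, the trophoblast factor, was at 0 and 5.44 at day 2. Krt8 and Trh were at 10.9 and 92.6 and at 9.52 and 93.8 at day 6 without cytokines.

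Of 15 neural crest genes tested, 8 were higher and 1 lower (5 higher without EpiLC replicate 2, and 5 without day 2 replicate 1), and 4 of these 15 (Pax3, Sox9, Zic1 and the lower gene Foxd3) also stand in the neural plate or pluripotency lists. Sox9, a factor of crest and glial progenitors, rose from 6.43 and 6.67 normalised counts to 165 and 97.9 (4.33 ± 0.70, adjusted p = 0.000291). The defining crest gene Sox10 had 19.3 and 10.01 in EpiLCs and 11.7 and 3.11 at day 2. Of 8 fibroblast genes tested, 3 were higher and 1 lower (1 higher without EpiLC replicate 2), with Lum and Dpt at 0 in all 4 libraries. Col1a1, a fibrillar collagen, rose by 2.86 (adjusted p = 0.0028, and 0.0519 without EpiLC replicate 2).

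Of 18 germline genes tested, 3 were higher and 7 lower, with a median of −0.65, and under library size alone 5 were higher and 5 lower, with a median of −0.08. Among the key germline factors, Tfap2c rose from 19.3 and 21.1 normalised counts to 47.8 and 45.1 (1.22 ± 0.32, adjusted p = 0.00837, and 0.0599 without EpiLC replicate 2). Prdm1 had 73.9 and 53.9 in EpiLCs and 40.9 and 32.6 at day 2 (adjusted p = 0.167), and Prdm14 had 3.21 and 0.556 against 2.92 and 6.99 (adjusted p = 0.154). Mael, a protein of the piRNA pathway, fell from 297 and 357 to 18.5 and 9.32 (−4.54 ± 0.35, adjusted p = 8.65e-07), whereas Kit, the receptor for SCF, rose by 2.10 (adjusted p = 0.00526, and 0.0624 without EpiLC replicate 1). Without day 2 replicate 2, 4 germline genes were lower, and without EpiLC replicate 2, 1 was higher. Of 11 genes of the 2-cell-like state tested, 0 were higher and 2 lower, and the number lower was 0 without either EpiLC replicate and 1 without either day 2 replicate or under library size alone. Reads of the near-identical Zscan4 copies cannot be assigned with certainty.

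Adhesion genes moved in both directions, with E-cadherin lower and N-cadherin higher. Of 25 cadherin and epithelial-mesenchymal genes, 8 were higher and 10 lower, and the median of −0.16 became 0.48 under library size alone. Cdh1, E-cadherin, fell from 10331 and 11249 normalised counts to 4104 and 5535 (−1.11 ± 0.20, adjusted p = 0.000751). Cdh2, N-cadherin, rose from 175 and 128 to 1200 and 540 (2.58 ± 0.52, adjusted p = 0.00152). Cdh6, a cadherin of neural folds, reached 353 and 130.5 (at least 74.5-fold higher) and Cdh11 rose by 5.57. Zeb2, a repressor of epithelial genes that also acts in neural development, rose from 17.7 and 12.8 to 1839 and 1223 (6.76 ± 0.41, adjusted p = 1.46e-07), and its relative Zeb1 rose by 4.26. Per kilobase of exon, Cdh1 stayed above Cdh2 at day 2, at 926 and 1249 normalised counts against 242 and 109.

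Of 20 matrix genes tested, 12 were higher and 3 lower, and 8 were higher without EpiLC replicate 2, 8 without day 2 replicate 1 and 9 without EpiLC replicate 1. At day 2, replicate 1 lay above replicate 2 for 19 of the 20. The basement membrane collagens Col4a2, Col4a5 and Col4a6 rose by 2.998, 4.01 and 5.67 on the log2 scale, and Col11a1, a cartilage collagen, by 2.54.

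Of 10 DNA methylation and demethylation enzymes, 4 were lower and 2 higher, with a median of −0.80 (4 higher under library size alone). Dnmt3b, the main de novo methyltransferase of EpiLCs, fell from 42663 and 48315 normalised counts to 10242 and 18747 (−1.60 ± 0.27, adjusted p = 0.000439), Dnmt3a fell by 2.09, and Dnmt3l, their cofactor without catalytic activity, fell from 2938 and 1534 to 47.8 and 30.3 (−5.80 ± 0.47, adjusted p = 7.57e-07). The demethylases differed among themselves. Tet1 fell from 6227 and 6036 to 2028 and 1754 (−1.65 ± 0.32, adjusted p = 0.00108), and Tet3 rose from 821 and 1019 to 2558 and 1965 (1.34 ± 0.29, adjusted p = 0.00264). Tet2 had 186 and 125 against 287 and 200.4 and was not past the test (adjusted p = 0.236).

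Most cholesterol genes were lower, by small amounts. Of 24 genes of synthesis and uptake, 15 were lower and 1 higher, with a median of −0.89, and 8 were lower under library size alone. Fdps, which makes farnesyl diphosphate, fell from 6095 and 6349 to 680 and 1895 (−2.21 ± 0.33, adjusted p = 0.000153). Insig1, the sterol sensor protein, fell by 1.35 and Lss, lanosterol synthase, fell by 1.30 on the log2 scale. The gene that was higher was Ebp, an isomerase of the late pathway (90.0 and 82.3 against 183 and 217.5). The motif TCACNCCAC, 1 form of the sterol response element, was found on either strand in the window of 1 of 16 of these genes (6.25%), Hmgcs1, and in 1.44% of all genes with a window. Hmgcs1 had a log2 fold change of −0.42, and a share that rests on 1 gene tests nothing.

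Of 27 hypoxia and glycolysis genes, 6 were lower and 1 higher (3 lower without EpiLC replicate 2, 3 without day 2 replicate 2, and 0 higher without EpiLC replicate 1), and the median of −0.55 became 0.02 under library size alone. Slc2a3, a glucose transporter, was the higher one (2570 and 2997 against 15800 and 11904, 2.36 ± 0.59, adjusted p = 0.00632, and 0.0635 without EpiLC replicate 1). Pdk1, which restrains pyruvate oxidation, fell by 2.10. Of 31 cell cycle genes, 4 were higher and 6 lower (12 lower by DESeq2, 9 with RLE factors, and 2 higher without EpiLC replicate 1), with a median of −0.36 that became 0.22 under library size alone. Ccnd2, cyclin D2, rose from 112.5 and 119 to 1219 and 1097 (3.36 ± 0.56, adjusted p = 0.000352), Cdkn1b, an inhibitor of the cycle, rose by 1.49, Cdkn2a, another inhibitor, fell by 4.62 and Myc fell by 2.37. Of 20 stress genes, 3 were higher and 2 lower (median −0.12, or 0.45 with 6 higher under library size alone), and 1 was higher when any of the 4 libraries was left out. Nupr1, a stress-induced chromatin protein, fell by 4.50. Of 14 p53 targets, 3 were higher and 2 lower (7 and 1 under library size alone, and 1 lower without EpiLC replicate 1 or day 2 replicate 1), where Btg2, a brake on growth, rose by 2.54 and Pmaip1, the death factor Noxa, fell by 1.55.

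The extreme changes were ranked among genes with a mean of at least 50 normalised counts. Of the 12 highest, 9 are described above (Cyp26c1, Olig3, Fgf10, Pax3, Cyp26a1, Hoxb1, Frzb, Cdh6 and Hoxb2), as is Kdr, and the others were Rtl8c (0 and 0 against 130 and 116) and Angpt1, a ligand of blood vessels (254 and 83.1 at day 2, at least 52.03-fold higher). The 12 lowest were Nlrp4f, Rpl39l, Nphs1, Rpl10l, Kirrel2, Slc5a11, Ddx60, Dnmt3l, Lgals9, Tmem40, Rhox5 and Triml2. Nphs1 and Kirrel2, which encode the related adhesion proteins nephrin and filtrin, are neighbours at chr7:30458207-30488623 and chr7:30447766-30457515. Nphs1 went from 1084 and 679 to 9.75 and 10.9 (−6.33 ± 0.90, adjusted p = 9.66e-05), and Kirrel2 from 601 and 367 to 6.82 and 7.77. Rpl39l and Rpl10l, copies of ribosomal protein genes best known from the testis, were lower, with log2 fold changes of −6.64 and −6.16, and reads shared with their parent genes make their values uncertain.

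The same interval of TKO cells shows which of these changes differed between the wild-type and TKO lines. Effects of the Tet deletions and of the rounds of cloning cannot be told apart here. The difference between the wild-type and the TKO change was tested as an interaction, and 2035 genes (12.3%) were called at an adjusted p below 0.05, 1026 with the wild-type change higher and 1009 with it lower. The wild-type and TKO changes share no library. Sox1 rose in wild-type cells and had a TKO change of −0.45, a difference of 7.40 ± 0.75 (adjusted p = 3e-05). Tfap2c rose by 5.01 in TKO cells against 1.22 in wild-type cells, a difference of −3.79 ± 0.42 (adjusted p = 6e-05). Prdm1, not past the test in wild-type cells, differed by −3.31 ± 0.52 (adjusted p = 0.00085), Nodal by −2.40 ± 0.43 (adjusted p = 0.00198) and Sox17 by 5.31 ± 1.07 (adjusted p = 0.00468). Tet1, whose open reading frame TKO cells lack, differed by −2.52 ± 0.45 (adjusted p = 0.00195).

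For Nanog (−0.41 ± 0.38), Sox2 (0.21 ± 0.42), Fgf5 (−0.02 ± 0.64), Dnmt3b (0.37 ± 0.38) and T (0.04 ± 1.14) the difference between genotypes was not past the test, with the smallest adjusted p at 0.553. Pax6 (1.29 ± 0.81, adjusted p = 0.338), Hes5 (2.10 ± 0.97, 0.182), Cdh2 (1.71 ± 0.72, 0.146), Tubb3 (−0.96 ± 0.47, 0.211) and Prdm14 (−2.13 ± 1.47, 0.395) also missed it. The Cdh2 difference was past it without the filter on low counts (adjusted p = 0.0225). In TKO cells Pax6 rose by 2.67 and Tubb3 by 2.76, while Hes5 (0.29) and Cdh2 (0.87) were not past the test. An interaction that misses the test does not show that the genotypes changed alike.

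**Figure D5:**
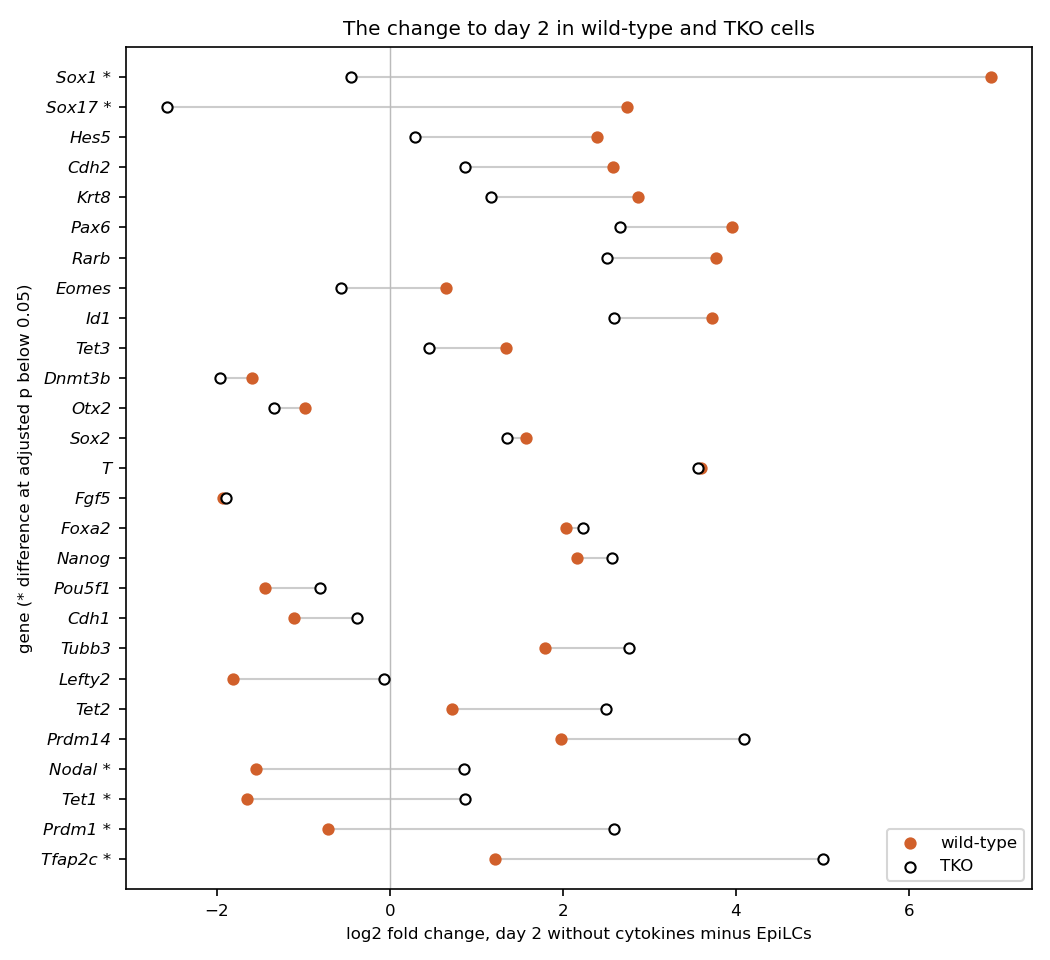
Log2 fold changes from EpiLCs to day 2 without cytokines in wild-type cells (orange) and TKO cells (open circles) for 27 genes, ordered by their difference. Sox1 has the largest positive difference (7.40) and Tfap2c the most negative (−3.79), and asterisks mark the 6 genes whose difference was past the test.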

How the data were processed

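The deposited table holds raw counts per gene for 18 libraries of rRNA-depleted RNA. The authors trimmed reads with Trim Galore 0.5.0 and cutadapt 1.16, aligned them to mm10 with STAR 2.7.1a and counted fragments on refGene exons with featureCounts (Subread 1.5.2), without a strand option and without multi-mapping or multi-overlapping fragments, so overlapping and near-identical genes are uncertain. The 33 rows that hold only command lines were dropped.

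Here, counts were filtered by filterByExpr, scaled by TMM and fitted with edgeR 4.0.16 (limma 3.58.1, R 4.3.3) as 1 model of 9 group means over all 18 libraries, and tested by the quasi-likelihood test. Levels are counts divided by DESeq2 1.42.0 size factors. The SE was approximated from the log2 fold change and the square root of its F statistic. A fold against a group with at most 3 counts in each library was computed from 3 counts per library, which covers counting error only. A gene was called at an adjusted p below 0.05, and where stated also beyond 2 on the log2 scale, the limits of the study. Coordinates are from RefSeq GRCm38.p6, matched for 25131 of 25239 genes, and exon lengths from GENCODE vM21. The fit was tested on simulated data. The members and lists were chosen with earlier results of these data known.

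Named genes were 28 key genes, the 12 highest and 12 lowest log2 fold changes among called genes with a mean of at least 50 normalised counts and no overlap of libraries, and up to 4 members per list by absolute log2 fold change. Genes at or near 0 that define a list were named too, some named genes are not reported here, and others are marked as chosen after their values were seen. Replicate 1 minus replicate 2 had a correlation of −0.10 between the groups over 9018 genes. Alternatives covered the test, the filter, the scaling, the libraries in the model, the replicate block, the thresholds and each library left out.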

Additional observations from a re-analysis of the deposited data

Results flagged for a closer look

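The change to day 2 differed between wild-type and TKO cells for 6 of the 28 key genes by the interaction test of edgeR. The differences, wild-type change minus TKO change on the log2 scale, were 7.396 for Sox1, 5.314 for Sox17, −2.402 for Nodal, −2.519 for Tet1, −3.308 for Prdm1 and −3.79 for Tfap2c. Sox1 had 83.3 and 19.8 normalised counts in TKO EpiLCs and 37.4 and 39.6 in TKO cells at day 2, all far below wild-type day 2. Tfap2c had 1789 and 1544 in TKO cells at day 2, and Prdm1 611 and 381. Sox17 was at or below 26.4 normalised counts in each of the 8 libraries compared. The Tet1 open reading frame is deleted in TKO cells, so its counts there (737 and 966.5 in EpiLCs, 1937 and 1200 at day 2) are not of an intact transcript.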

How the results depend on the processing

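The count of 1901 genes past both limits was 3788 (2259 higher, 1529 lower) with a log2 fold change beyond 1, and 1942 genes were higher under library size alone. Under the other alternatives it stayed within 1.5 times, including 1861 by the Wald test of DESeq2 (1782 of them also called by edgeR), 1897 with RLE factors, 2008 without the filter and 1529 with a mean CPM of at least 1. Leaving out 1 of the 4 libraries gave 1512 to 1824 genes, 882 to 1157 higher and 607 to 702 lower, and 204 to 253 called list genes against 281.

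The count of 2035 genes that differed between genotypes was 898 at an adjusted p below 0.01 and ranged from 1103 to 1944 when 1 library was left out, lowest without TKO day 2 replicate 1, with the lone library assumed to vary like the other groups. It could not be computed from only the 4 wild-type libraries. For the 6 key genes that differed between genotypes, the call on that difference was kept under each alternative run. Of the named genes, 0 reversed, and between 7 and 14 of 132 lost their call when 1 library was left out. Replicate numbers share no stated origin and 2 pairs cannot settle it. With a replicate block 1867 genes were called, and 1666 in the 4 libraries alone against 1651 there without the block. A crossed replicate block, chosen after seeing the data because the correlation was −0.10, gave 1675 genes. With 2 libraries per group no exact test of a single gene could reach the threshold, and genes near 3 counts are limited by depth.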
